A study of Linum usitatissimum with 8 samples.

Results

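RNA sequencing counts were compared between flax seed (Linum usitatissimum, cultivar Heiya No.14) of the stage labelled DAP20 and seed of the stage labelled DAP5. The comparison used the 4 libraries of these stages, 2 per stage, out of 8 in the series, and all genes of the count table. The 2 libraries labelled DAP10 lie between them and were used to ask which changes were already present at that stage, and the 2 libraries labelled DAP30 served as a later point. No treatment or genotype distinguishes the groups, which share 1 cultivar and the tissue label seed. The labels spell out neither the stage names nor how many plants or seeds a library holds, and they do not say whether replicates are separate plants. P-values therefore reflect the spread between these libraries only. Of 40518 genes in the table, 28749 had enough counts to be tested and 11769 did not.

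A seed is made of an embryo, an endosperm that feeds it and a coat that comes from the mother plant. In early development cells of the embryo and endosperm divide and the coat forms, and in the later filling phase the embryo stores oil and protein. Flax is known for an oil rich in alpha-linolenic acid and for the mucilage in its seed coat. The table pairs no gene ID with a name, so no role is given to any gene below, the tissue label was not checked against marker genes, and at most 2 IDs per direction are printed for each way of ranking or grouping genes. In whole seeds, a change in the number of cells of a type and a change in RNA per cell cannot be told apart.

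Library totals ran from 12951493 counts at DAP10 to 27691831 at DAP5, so DAP10 was the shallowest stage and DAP5 the deepest. The replicates of DAP20 lay furthest apart. Levels are given as CPM, counts scaled to a common library size, after correction by the trimmed mean of M-values (TMM), which assumes that most genes keep their level. Where a gene's mean reached 10 CPM, the DAP20 libraries differed by more than 2-fold for 8.75% of genes, against 3.08% at DAP5 and 0.499% at DAP10. Every pair of replicates differed by more than counting noise. The libraries were treated as separate samples, although such a difference does not show that replicates are separate plants.

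The seed at DAP20 differed from the seed at DAP5 in most of its measured genes. In the quasi-likelihood test of edgeR, with a false discovery rate (FDR) below 0.05, 17430 genes changed (60.6% of those tested). Of these, 8335 were higher at DAP20 (29.0%) and 9095 were lower (31.6%). Falls were larger than rises: the median log2 difference was -2.36 among the genes that fell, with quartiles of -3.83 and -1.34, and 1.5 among those that rose, with quartiles of 0.94 and 2.62. A difference of at least 8-fold was seen for 3416 genes that fell and 1717 that rose, and one of at least 128-fold for 419 and 324. In these counts a gene with no count at 1 stage was set to the smallest fold that 3 counts over both libraries of that stage allow.

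The libraries of the 2 stages did not overlap for 8313 of the 8335 genes that rose and 9093 of the 9095 that fell. Among all genes tested, called ones included, 80.5% had libraries that did not overlap between DAP5 and DAP20. DAP20 lay above for 38.5% and below for 42.0%. Non-overlap was thus nearly complete among called genes, but it was so common over all genes that alone it does not mark a change. The balance of rises and falls rests on the scaling. With library totals in place of TMM the median log2 difference of all genes moved from -0.05 to -0.82, and 4138 genes were higher and 14361 lower, so that 22.4% of called genes rose in place of 47.8%. Total RNA per seed was not measured in these files, so neither scaling gives absolute amounts.

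**Figure D1:**
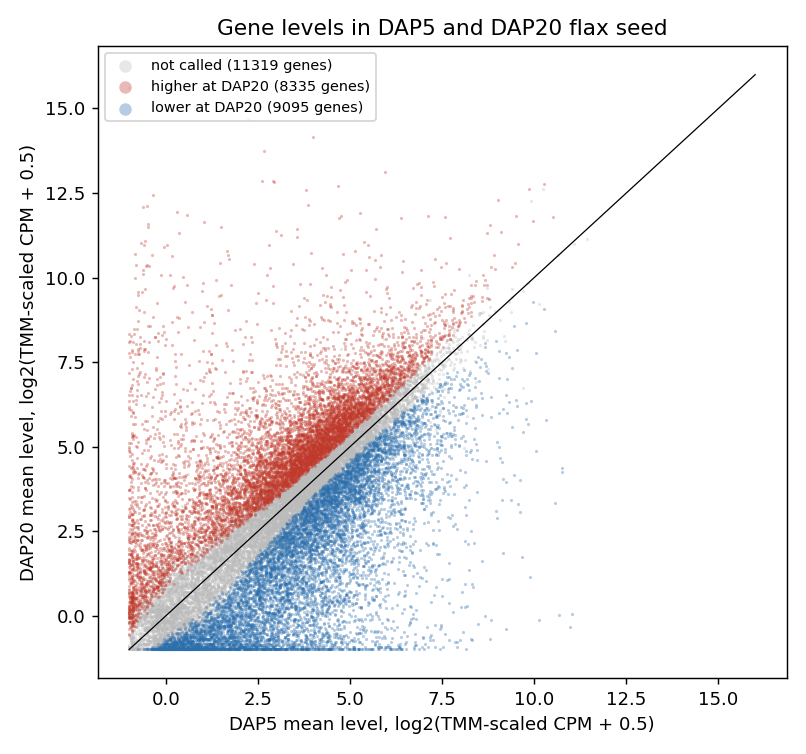
Mean level of each of 28749 genes at DAP5 (horizontal axis) and DAP20 (vertical axis), as log2 of TMM-scaled CPM plus 0.5, with 1 point per gene. Red points are the 8335 genes higher at DAP20, blue points the 9095 lower and grey points the 11319 not called; the blue points spread further from the diagonal line of equal levels than most of the red ones.

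Under TMM, rises were more frequent among genes with higher levels, while falls were most frequent among genes of low to middle level. When genes were ordered by their mean over the DAP5, DAP10 and DAP20 libraries and divided into 4 groups of equal size, 42.1% of the group with the highest levels rose and 24.6% fell. From the second highest group to the lowest, 33.1%, 24.0% and 16.8% rose, and 30.1%, 37.1% and 34.7% fell. These shares were not computed with library totals. The share called in either direction went from 51.6% in the lowest group, with a median of 1.08 CPM, to 66.7% in the highest group, with a median of 49.6 CPM.

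The genes that rose came to hold most of the counts. They held 24.1% and 25.3% of all counts in DAP5 replicates 1 and 2, 43.2% and 39.8% by DAP10, 73.5% and 74.1% by DAP20, and 73.6% and 75.3% by DAP30. The genes that fell held 44.4% and 42.9% at DAP5, 28.1% and 29.1% by DAP10, 6.94% and 6.11% by DAP20, and 6.60% and 6.06% by DAP30. Both sets were chosen on the DAP5 and DAP20 libraries, so their levels at those stages are a description, whereas the DAP10 and DAP30 libraries did not enter the contrast. These shares use library totals and do not depend on TMM, apart from the choice of the genes. At DAP20, 50% of the counts of the 8335 risen genes lay in 185 genes, whereas at DAP5 50% of the counts of the 9095 fallen genes were spread over 732.

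**Figure D2:**
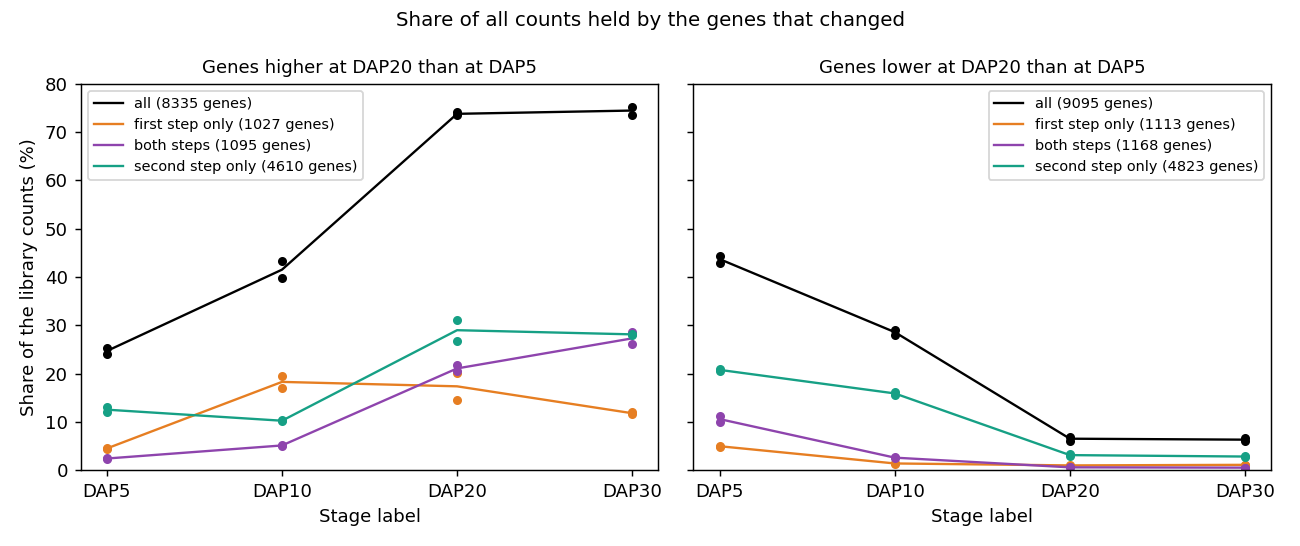
Share of all counts of a library (vertical axis, %) held by the genes higher (left) or lower (right) at DAP20 than at DAP5, by stage, with points for the libraries and lines through the stage means. The black line is all called genes and the coloured lines are the genes called in the first step only, in both steps and in the second step only; the black line of the risen genes climbs from 24.1% and 25.3% at DAP5 to 73.5% and 74.1% by DAP20.

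Lus10004895.g.BGIv1.0 had the highest level per length at DAP20 and the largest rise among the genes ranked by fold. Neither DAP5 nor DAP10 held a single count of it, whereas it reached 44598 and 55659 CPM in DAP20 replicates 1 and 2 and 4794 and 7638 CPM at DAP30. Both DAP20 libraries lay far above every other library. The rise was at least 1286736-fold (edgeR FDR = 3.54e-05), and at least 672407-fold or 614329-fold when DAP5 replicate 1 or 2 was left out, which leaves less depth behind the same 3 counts. Per kilobase of deposited gene length its level at DAP20 was 47202 CPM, the highest of all genes tested.

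The gene with the next highest increase per length was Lus10040396.g.BGIv1.0. Its levels were 2.48 and 31.5 CPM in the DAP5 libraries, 18341 and 14252 by DAP10, 37988 and 31196 by DAP20 and 6593 and 4509 by DAP30. The DAP5 libraries differed widely from each other but both lay far below those of DAP10 and DAP20. The log2 difference over the span was 10.99 ± 1.39 (SE, edgeR FDR = 0.000419), or 10.09 without DAP5 replicate 1 and 13.76 without replicate 2. Per kilobase its mean rose from 15.7 to 32089 CPM. Unlike the gene before it, it was called in the step from DAP5 to DAP10 (log2 difference 9.91, or 9.01 and 12.68 without DAP5 replicate 1 or 2, edgeR FDR = 0.00298) and not in the step from DAP10 to DAP20 (1.09, FDR = 0.35).

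The 2 largest losses per length were unlike each other. Lus10006666.g.BGIv1.0 had 1266 and 633 CPM in the DAP5 libraries, 12.7 and 34.9 by DAP10, 0.483 and 2.93 by DAP20 and 0.0593 and 0 by DAP30, so it had nearly left the seed. Its log2 difference from DAP5 to DAP20 was -9.15 ± 0.99 (SE, edgeR FDR = 0.000204), or -8.35 without DAP20 replicate 1 and -10.94 without replicate 2. Lus10032825.g.BGIv1.0, with a deposited length of 258 bases, had 1433 and 1048 CPM in the DAP5 libraries, 3029 and 2714 by DAP10, 645 and 418 by DAP20 and 1196 and 1211 by DAP30. It thus remained abundant, and its loss was only large per length, from 4808 to 2060.2 CPM per kilobase. The log2 difference was -1.22 ± 0.29 (SE, edgeR FDR = 0.00783), and it was not called in a test against a 2-fold change (FDR = 0.200).

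For most genes the larger part of the change came after DAP10. The steps run from label 5 to 10 and from 10 to 20, so if the labels count time evenly the second is longer. Neither the shares nor the classes of steps below were adjusted for this. The share of the log2 difference between DAP5 and DAP20 that was present at DAP10 had a median of 25.1% for the genes that rose, with quartiles of -1.21% and 54.0%, and of 21.8% for those that fell, with quartiles of -2.62% and 48.3%. A negative share means that the DAP10 level lay on the far side of DAP5, and a share above 100% that it lay beyond DAP20. Between 75% and 100% of the change was present for 594 risen genes, and a further 587 stood above 100%. Among fallen genes these numbers were 535 and 526. Below 0% were 2147 risen and 2459 fallen genes. The share is a description with no test, since both of its terms use the DAP5 libraries.

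With library totals in place of TMM the 2 directions drew apart, with a median share of 17.9% for the genes that rose and 33.7% for those that fell. Taken from each DAP10 library alone, on log2 of CPM plus 0.5, the medians were 24.1% and 22.4% for rises and 27.9% and 24.3% for falls. Whether rises or falls ran ahead at DAP10 therefore depends on the scaling and on the estimate of the share.

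**Figure D3:**
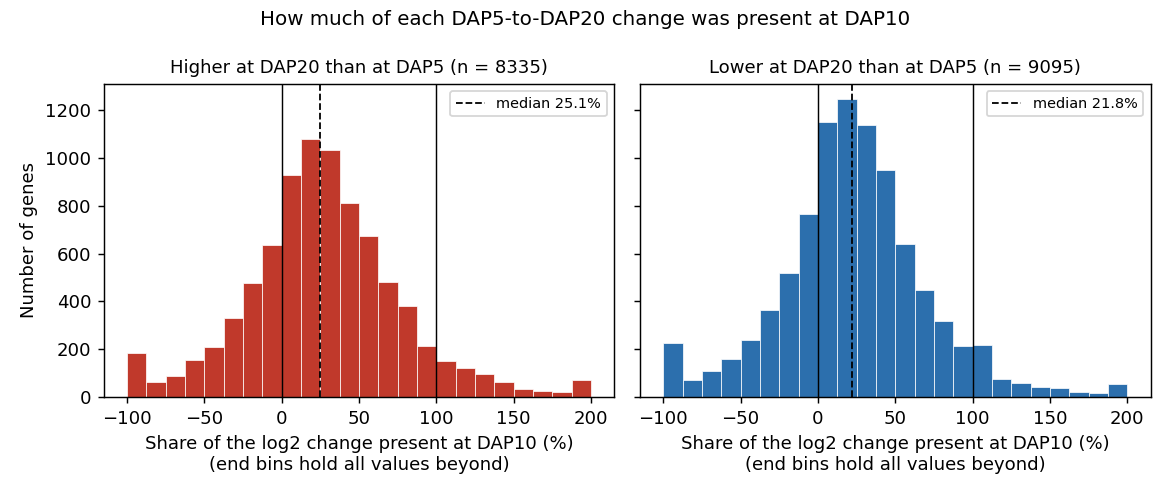
Number of genes (vertical axis) by the share of their log2 difference between DAP5 and DAP20 that was present at DAP10 (horizontal axis, %), for 8335 genes that rose (left) and 9095 that fell (right). Solid lines mark the DAP5 level (0%) and the DAP20 level (100%) and dashed lines the medians of 25.1% and 21.8%; both distributions peak between 0% and 50%.

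The order of the single libraries showed on which side DAP10 stood, not how much of the change was present. It was taken for called genes only, so no share over all genes tested stands beside it. Of the 8313 risen genes with no overlap between DAP5 and DAP20, both DAP10 libraries fell in the gap for 3743, or 45.0%. For 2209 they overlapped DAP5 and stayed clear of DAP20, and for 796 they overlapped DAP20 and stayed clear of DAP5. They lay beyond both DAP20 libraries for 347 genes and below both DAP5 libraries for 1201. Of the 9093 fallen genes, 4402 had both DAP10 libraries in the gap (48.4%), 1812 overlapped DAP5, 925 overlapped DAP20, 204 went past DAP20 and 1741 stood above both DAP5 libraries.

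Each called gene was then placed by the tests of its 2 steps. From DAP5 to DAP10, 6772 of all genes tested changed (23.6%), 3564 higher (12.4%) and 3208 lower (11.2%), or 2100 higher and 7002 lower with library totals. From DAP10 to DAP20, 15323 changed (53.3%), 7332 higher (25.5%) and 7991 lower (27.8%), or 4572 higher and 10634 lower with library totals. The steps share the DAP10 libraries and each shares libraries with the span, so the classes describe the genes and are not independent evidence. Of the 17430 genes that changed over the span, 9433 were called in the second step only (54.1%), 2140 in the first step only (12.3%) and 2263 in both steps in the direction of the span (12.98%). Another 187 passed their DAP20 level at DAP10 and came back, 728 first moved the opposite way, and 2679 were called in neither step.

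The division was alike in both directions under TMM. The second step alone held 4610 of the genes that rose (55.3%) and 4823 of those that fell (53.0%). The first step alone held 1027 (12.3%) and 1113 (12.2%), and both steps held 1095 (13.1%) and 1168 (12.8%). With library totals the second step alone held 54.8% of rises and 43.1% of falls, the first step alone 12.1% and 17.8%, and both steps 11.8% and 20.03%. A detour through the opposite direction was taken by 514 genes that fell (5.65%) and 214 that rose (2.57%). With library totals such falls were still more in number, at 472 against 244 rises. Their share was then the smaller, at 3.29% of falls against 5.90% of rises.

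How many changes were called by DAP10 rests on few libraries. The number fell without a DAP5 or DAP10 library. It rose without either DAP20 library, although DAP20 enters that step only through the shared fit. The classes of the first step only and of both steps then also grew, and that of the second step only shrank. All changes of the first step, 6772 with every library, numbered 1818 and 2103 when DAP10 replicate 1 or 2 was left out and 3376 and 3156 when DAP5 replicate 1 or 2 was. The genes called in the first step only numbered 739, 869, 1007 and 949 in the same order. Those called in both steps numbered 555, 636, 1178 and 1162 in the same order, and those called in neither step 6110 and 6469 without 1 of the DAP10 libraries. All changes of the second step, 15323, numbered 10010 without DAP10 replicate 2. Genes that passed their DAP20 level and came back, 187 in all, numbered 69 and 81 without DAP10 replicate 1 or 2. The genes called in the second step only ran from 7668 to 9520 over the 8 libraries left out in turn. Without DAP10 replicate 1 or 2, most genes called in the first step only left that class, but few passed to the second step only. Of the genes called in both steps, more passed to the second step only than stayed. The same held for genes that first moved the opposite way. Most genes called in the second step only stayed, but the totals of that class also include genes that entered from other classes.

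**Figure D4:**
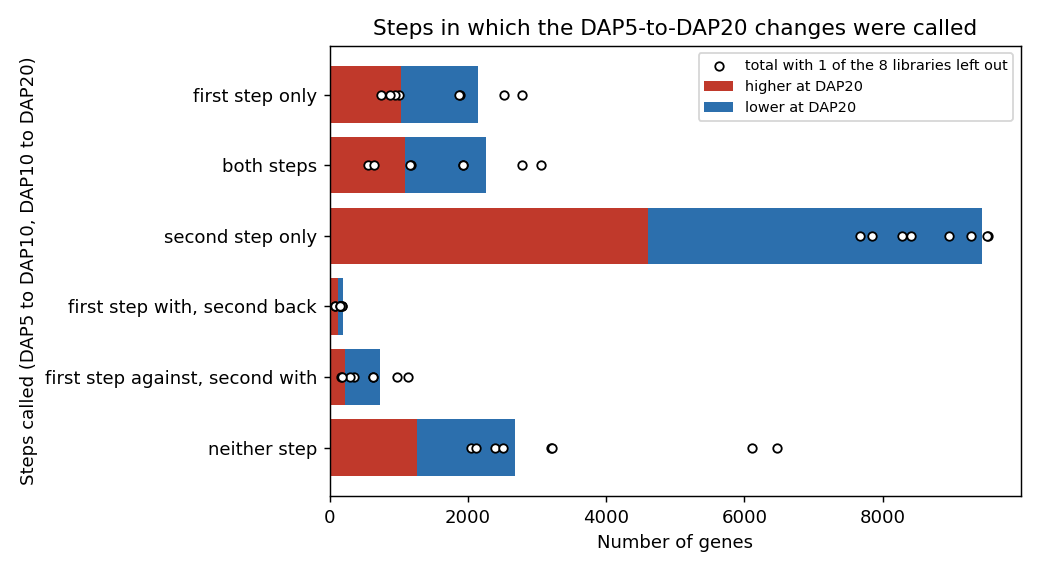
Number of genes (horizontal axis) that changed from DAP5 to DAP20, by the steps in which they were called (vertical axis), with genes that rose in red and genes that fell in blue, stacked from 0. Open circles give the total of each class with 1 of the 8 libraries left out, including genes that entered it from other classes. The second step alone holds 9433 genes with every library kept.

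Large changes were more often called in both steps. Of the 464 risen genes with a log2 difference of 6 or more, 211 were called in both steps (45.5%) and 193 in the second step only (41.6%). Of the 3019 with a log2 difference of 1 to 2, the shares were 9.80% and 62.8%. Falls behaved alike, with 312 of the 736 largest called in both steps (42.4%) and 157 of the 2474 with a log2 difference of 1 to 2 (6.35%). Whether a step is called depends on its size, so these shares are not independent of it. The median share present at DAP10, which uses no calls of steps, was 36.5% for the largest rises and 22.4% for rises of 1 to 2, against 20.5% and 21.5% for falls.

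The rises called in the first step only held a large share of the counts at DAP10 and DAP20, and less at DAP30. The class says that the second step missed the threshold, not that a gene had reached its DAP20 level. The 1027 genes called in the first step only held 4.44% and 4.58% of the counts at DAP5, 19.6% and 17.0% by DAP10 and 20.1% and 14.6% by DAP20. At DAP20, 50% of their counts lay in 8 genes. Lus10011816.g.BGIv1.0 had 1.39 and 7.06 CPM in the DAP5 libraries, 9481 and 6146 by DAP10, 30041 and 22622 by DAP20 and 11551 and 11325 by DAP30. Both DAP10 libraries lay above both of DAP5, and both of DAP20 above those. Its log2 difference was 10.85 ± 1.0 in the first step (SE, edgeR FDR = 0.000676) and 1.75 ± 0.67 in the second (FDR = 0.06), so the later part of the rise missed the threshold. The first step was 10.11 and 12.45 without DAP5 replicate 1 or 2. Over the span the log2 difference was 12.60, or 11.86 and 14.20 in the same order.

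Lus10003554.g.BGIv1.0, the other gene of this kind, had 0.381 and 1.07 CPM in the DAP5 libraries, 2997 and 1570.3 by DAP10, 6472 and 1354 by DAP20 and 214 and 267 by DAP30. The DAP20 libraries lay on both sides of those of DAP10, and the gene had lost most of its level by DAP30 (log2 difference from DAP20 -4.02, edgeR FDR = 0.00934). The first step was 11.60 ± 1.13 (SE, FDR = 0.000838), or 12.52 without DAP5 replicate 2. The log2 difference over the span, 12.38, was 10.83 and 13.08 without DAP20 replicate 1 or 2, and 13.30 without DAP5 replicate 2.

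Among falls called in the first step only, some genes were nearly without counts at DAP10. Lus10006141.g.BGIv1.0 had 259 and 221 CPM in the DAP5 libraries, 0.0606 and 0.283 by DAP10, 0 and 0.0623 by DAP20 and 0.178 and 0 by DAP30. It came first among falls in the ranking by fold, but its log2 difference of -12.7535 was nearly equal to the next, -12.753. Without DAP20 replicate 1 or 2 it was -11.80 or -15.39. Its summed counts were 18388 for DAP5, 5 for DAP10 and 1 for DAP20, a scaled ratio of 8284 with 95% binomial limits (exact) of 1487 and 327226 (edgeR FDR = 1.24e-05). The single DAP20 count lay in replicate 2, without which none is left. Lus10002618.g.BGIv1.0 had 553 and 329 CPM in the DAP5 libraries, 0.182 and 1.70 by DAP10, 0.107 and 0.1246 by DAP20 and no count at DAP30. Its first step was -8.92 ± 0.79 (SE, edgeR FDR = 0.00109), or -8.02 without DAP10 replicate 1 and -11.21 without replicate 2. For both genes every DAP10 library lay below every DAP5 library. The 1113 fallen genes of this class held 5.05% and 4.89% of the counts at DAP5 and 1.38% and 1.42% by DAP10.

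Genes that rose in both steps gained most of their counts after DAP10. The 1095 genes held 2.38% and 2.47% of the counts at DAP5, 5.27% and 4.99% by DAP10, 20.5% and 21.7% by DAP20 and 26.0% and 28.5% by DAP30. Lus10029937.g.BGIv1.0 had 0.163 and 0.249 CPM in the DAP5 libraries, 5.33 and 3.39 by DAP10, 3346 and 5489.8 by DAP20 and 2074 and 3576 by DAP30, with no overlap among the first 3 stages. Its steps were 4.36 ± 0.53 (SE, edgeR FDR = 0.00192) and 9.98 ± 0.57 (FDR = 3.72e-05), so 30.4% of the log2 rise was present at DAP10.

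Lus10004471.g.BGIv1.0 rose further, from 0.109 and 0.199 CPM at DAP5 and 1.21 and 0.424 by DAP10 to 4992 and 3671 by DAP20 and 649 and 1265 by DAP30. Its log2 difference over the span was 14.72 ± 0.78 (SE, edgeR FDR = 1.37e-05), the second largest in that ranking. The first step rests on 12 and 26 counts summed over the libraries of DAP5 and DAP10. It was 2.38 on the log2 scale (edgeR FDR = 0.0449) and was not called without any 1 library of these stages (FDR from 0.0544 to 0.355), with library totals (0.0599), under limma-voom (0.276), with a replicate block (0.0630) or against a 2-fold change (0.207). Without DAP10 replicate 1 the first step was 1.42.

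Among the genes that fell in both steps, Lus10002964.g.BGIv1.0 had 2206 and 1845 CPM in the DAP5 libraries, 47.3 and 140.1 by DAP10, 0.322 and 0.249 by DAP20 and 0.119 and 0.0797 by DAP30. The stages DAP5, DAP10 and DAP20 did not overlap. Its first step was -4.43 ± 0.50 (SE, edgeR FDR = 0.00154), or -5.43 without DAP10 replicate 2, and its second -8.32 ± 0.67 (FDR = 9.52e-05), or -7.34 without that library and -8.91 without DAP10 replicate 1. Lus10030913.g.BGIv1.0 had 188 and 179 CPM in the DAP5 libraries, 7.94 and 8.19 by DAP10, 0.0536 and 0 by DAP20 and no count at DAP30. The replicates of DAP5 and DAP10 lay close together, and the first step was -4.51 ± 0.22 (SE, edgeR FDR = 0.000206). Its 14103 counts at DAP5 fell to 247 at DAP10 and 1 at DAP20, a scaled ratio over the span of 6354 with 95% binomial limits (exact) of 1140.2 and 250975. Its single DAP20 count lay in replicate 1. The fitted log2 difference of this gene over the span, -12.37, was -14.98 and -11.61 without DAP20 replicate 1 or 2. The 1168 fallen genes of this class held 11.1% and 10.02% of the counts at DAP5, 2.50% and 2.71% by DAP10 and 0.633% and 0.567% by DAP20.

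The genes called in the second step only had a median level at DAP10 close to that at DAP5. For the 4610 that rose, the median of log2 (CPM plus 0.5) was 3.47 at DAP5, 3.52 by DAP10, 4.90 by DAP20 and 5.10 by DAP30. For the 4823 that fell it was 3.65, 3.52, 1.23 and 0.67. The class was chosen by these steps, so its medians are a description, and a step that missed the threshold does not show that a gene kept its level. After Lus10004895.g.BGIv1.0, the largest rise of this kind was that of Lus10032324.g.BGIv1.0, with 0.0272 and 0.0994 CPM in the DAP5 libraries, 0.182 and 0.141 by DAP10, 2029 and 1285 by DAP20 and 57.9 and 133 by DAP30. Summed counts were 5 for DAP5, 5 for DAP10 and 58443 for DAP20, a scaled ratio over the span of 25945 with 95% binomial limits (exact) of 11117 and 79907 (edgeR FDR = 1.37e-05). The fitted log2 difference, 14.52, was 13.93 and 15.57 without DAP5 replicate 1 or 2. Both genes were lower again at DAP30 than at DAP20, by log2 differences of -3.01 (edgeR FDR = 0.00746) and -4.12 (FDR = 0.0014).

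Late falls could be as deep. Lus10017615.g.BGIv1.0 had 188 and 448 CPM in the DAP5 libraries, 217 and 262 by DAP10, 0.161 and 0.0623 by DAP20 and 0.119 and 0.159 by DAP30. The DAP10 libraries lay between the 2 DAP5 libraries, and the first step was -0.41 ± 0.37 (SE, edgeR FDR = 0.462). It fell from 24948 counts at DAP5 and 7292 at DAP10 to 4 at DAP20, a scaled ratio over the span of 2809.9 with 95% binomial limits (exact) of 1097 and 10314 (FDR = 1.87e-05). The fitted log2 difference, -11.36, was -10.60 without DAP5 replicate 2 and -12.20 without DAP20 replicate 1. Lus10037737.g.BGIv1.0 had 85.3 and 77.5 CPM in the DAP5 libraries, 68.6 and 84.3 by DAP10, 0.0536 and 0 by DAP20 and no count at DAP30. Its first step was -0.09 ± 0.21 (SE, edgeR FDR = 0.785), and its scaled ratio over the span was 2818 with 95% binomial limits (exact) of 506 and 111323, set by 1 count in DAP20 replicate 1. Its fitted log2 difference over the span, -11.20, was -13.80 and -10.44 without DAP20 replicate 1 or 2.

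**Figure D5:**
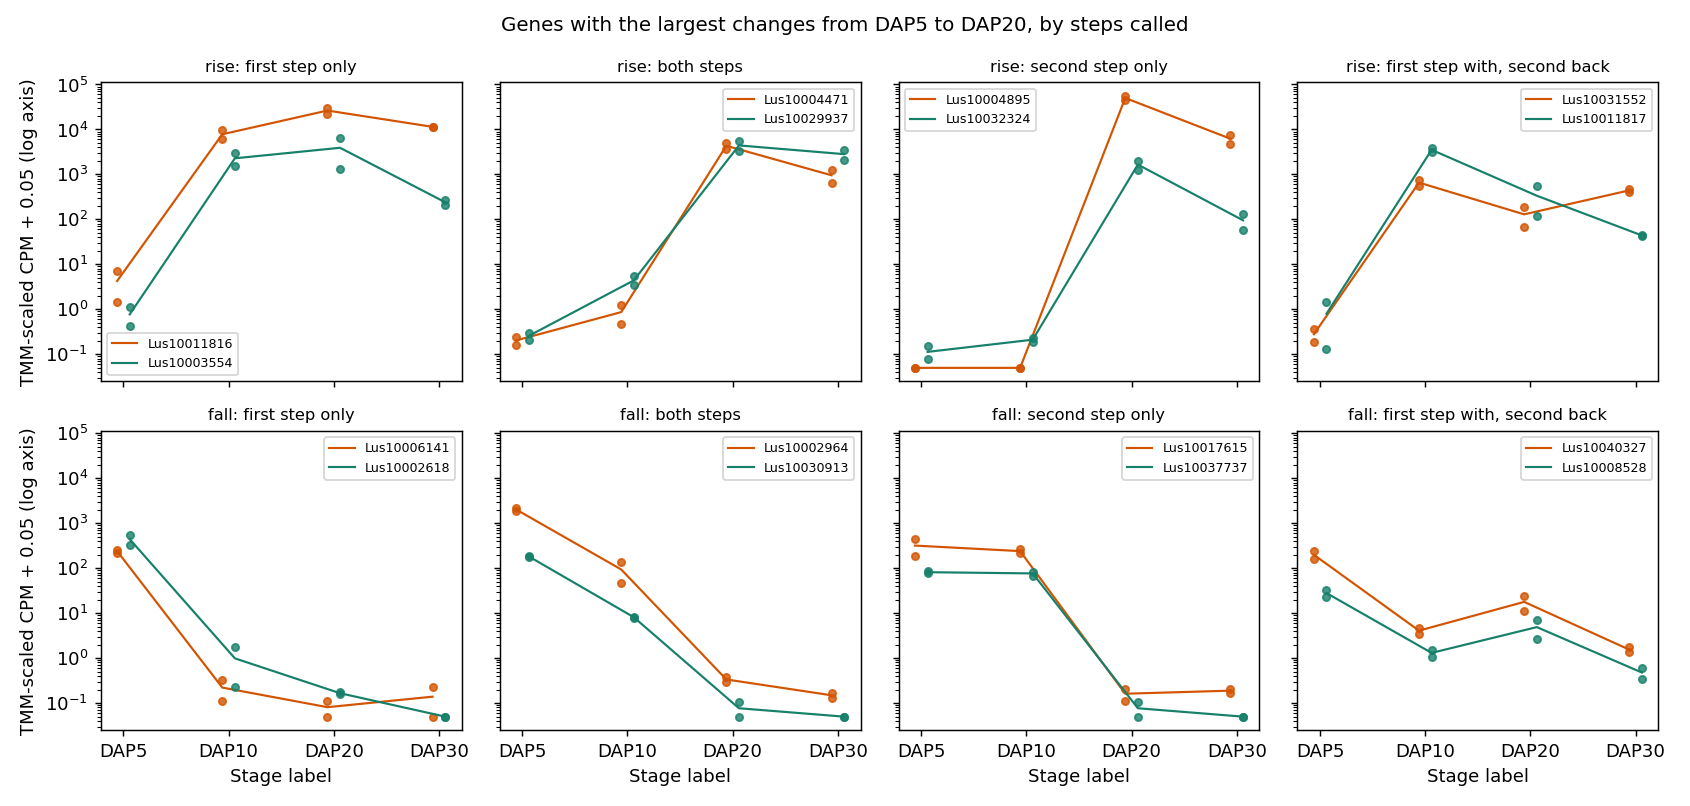
TMM-scaled CPM plus 0.05 (vertical log axis) by stage (horizontal axis) for the genes with the largest rises (top) and falls (bottom) of each class, with 2 points per stage for the 2 libraries and lines through the stage means. IDs are given without their common ending; the panels run from genes called in the first step only, through both steps and the second step only, to genes that passed their DAP20 level at DAP10.

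A small group overshot. The 123 genes that rose past their DAP20 level at DAP10 held 0.417% and 0.438% of the counts at DAP5, 3.20% and 2.69% by DAP10, 0.649% and 0.508% by DAP20 and 0.619% and 0.581% by DAP30. Lus10031552.g.BGIv1.0 had 0.136 and 0.323 CPM in the DAP5 libraries, 758 and 558 by DAP10, 192 and 67.4 by DAP20 and 478 and 408 by DAP30, with no overlap between any of the 4 stages. Its steps were 11.43 ± 0.76 (SE, edgeR FDR = 0.000261) and -2.34 ± 0.49 (FDR = 0.00564), the first being 12.17 without DAP5 replicate 2 and the second -3.29 without DAP20 replicate 1. Lus10011817.g.BGIv1.0 had 0.0816 and 1.42 CPM in the DAP5 libraries, 3958 and 3092 by DAP10, 555 and 118 by DAP20 and 43.3 and 44.4 by DAP30. Its second step, -3.39 ± 0.97 (SE, edgeR FDR = 0.0208), was not called without DAP10 replicate 1 (0.0688), without DAP10 replicate 2 (0.0545) or against a 2-fold change (0.0519). It was -4.91 and -2.68 without DAP20 replicate 1 or 2. Its log2 difference over the span, 8.78, was 7.25 and 9.48 in the same order, and 7.88 and 11.89 without DAP5 replicate 1 or 2.

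Falls past the DAP20 level at DAP10 numbered 64 (0.70% of falls), fewer than the 123 rises of this kind (1.48% of rises). With library totals the numbers were reversed, at 128 falls and 82 rises. The shares were not, at 0.89% of falls and 1.98% of rises. Lus10040327.g.BGIv1.0 had 237 and 160.4 CPM in the DAP5 libraries, 3.33 and 4.73 by DAP10, 24.3 and 11.2 by DAP20 and 1.31 and 1.67 by DAP30, so that it stood lowest at DAP30. Its steps were -5.63 ± 0.45 (SE, edgeR FDR = 0.000458) and 2.14 ± 0.40 (FDR = 0.00355), and the second was 1.48 without DAP20 replicate 1. Lus10008528.g.BGIv1.0 had 33.0 and 22.9 CPM in the DAP5 libraries, 1.03 and 1.48 by DAP10, 7.14 and 2.55 by DAP20 and 0.297 and 0.558 by DAP30. Its return, 1.96 ± 0.53 (SE, edgeR FDR = 0.017), was 1.03 without DAP20 replicate 1 (0.0761), and was not called there, without either DAP10 library (0.107 and 0.0595), under limma-voom (0.0744) or against a 2-fold change (0.0789).

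The opposite detour, up at DAP10 and then down below DAP5, was taken by 514 genes. They held 3.10% and 3.16% of the counts at DAP5, 6.62% and 6.54% by DAP10, 0.578% and 0.505% by DAP20 and 0.584% and 0.542% by DAP30. Lus10032825.g.BGIv1.0, described above by its loss per length, was one of them. It rose by 1.21 ± 0.29 on the log2 scale in the first step (SE, edgeR FDR = 0.023) and its second step was -2.43 ± 0.30 (FDR = 0.000516). The first step was not called without DAP10 replicate 1 (0.122), DAP10 replicate 2 (0.0874) or DAP5 replicate 2 (0.104), with library totals (0.0640), with only 3 stages in the fit (0.0545) or against a 2-fold change (0.530). In all, the genes that first moved against the span numbered 165 and 180 without DAP10 replicate 1 or 2, 344 and 287 without DAP5 replicate 1 or 2, and 1131 without DAP20 replicate 1.

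Few of the 28749 genes tested met a strict rule for being switched on or off. Genes below 10 CPM in either library of the higher stage could not meet it, so the numbers depend on this limit. With TMM scaling, 15 genes went from no count in the DAP5 libraries to 10 CPM or more in each DAP20 library, and 98 went the other way. Of the 15, 2 were at 10 CPM or more in both DAP10 libraries and 4 had no count there. Of the 98, 23 were still at 10 CPM or more in both DAP10 libraries, 5 had no count at DAP10 and 71 had none at DAP30. No count is easier to reach at DAP20, where 3 counts over both libraries equal 0.0865 CPM, than at DAP5, where they equal 0.0390.

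When silence was set at a mean under 0.5 CPM, which depends less on depth, there were 231 genes switched on and 448 switched off. At DAP10, 41 of the 231 were already at 10 CPM or more in both libraries and 74 were still below 0.5 CPM. Of the 448, 165 were still at 10 CPM or more and 49 were already below 0.5 CPM. At DAP30, 171 of the 231 were at 10 CPM or more, and 414 of the 448 were below 0.5 CPM. With library totals the numbers were 176 and 647, so more genes were switched off than on under both scalings. All of these genes were among those called over the span.

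Most genes that changed by DAP20 differed in the same direction between DAP10 and DAP30. The contrast of DAP30 with DAP10 shares no library with that of DAP20 with DAP5, although all stages entered 1 fit. In it, 18955 of all genes tested changed (65.9%), 8411 higher (29.3%) and 10544 lower (36.7%), or 5756 higher and 13242 lower with library totals. Of the 8335 genes that rose from DAP5 to DAP20, 5646 were higher at DAP30 than at DAP10 (67.7%) and 662 were lower (7.94%), with a median log2 difference of 1.24. Of the 9095 that fell, 6799 were lower (74.8%) and 302 higher (3.32%), with a median of -2.44, against a median of -0.21 over all genes tested.

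Between DAP20 and DAP30 themselves, 9338 of all genes tested changed (32.5%), 4327 higher (15.1%) and 5011 lower (17.4%). Of the genes that had risen by DAP20, 2236 rose again (26.8%), 1451 fell back (17.4%) and 4648 were not called. Of those that had fallen, 1805 fell further (19.8%), 814 rose (8.95%) and 6476 were not called. This step shares the DAP20 libraries with the span, and the replicates of DAP20 were the least alike. The count of all changes in this step was 4660 without DAP30 replicate 1 and 5069 without DAP30 replicate 2.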

How the data were processed

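Seed RNA was extracted with TRIzol and sequenced from libraries of an NEBNext Ultra RNA kit, according to the protocols in the labels. The authors deposited raw counts as whole numbers for each gene in every library, beside a gene length. Not given in the sources used here were the aligner, the counting tool, the build and the use of strand, so values of overlapping genes and close copies may include each other's reads. Columns were matched to samples by the library code in the descriptions.

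Counts were analysed in R 4.3.3 with edgeR 4.0.16. Genes were kept by filterByExpr (minimum count 10, minimum total 15) and scaled by TMM. A quasi-likelihood model of stage was fitted to all 8 libraries, with FDR by the Benjamini-Hochberg method over 28749 genes. SE is the absolute log2 difference divided by the square root of F. Intervals and bounds cover counting error only. CPM per kilobase uses the deposited length.

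Named genes had an FDR below 0.05 over the span, libraries that did not overlap and a mean of at least 10 CPM over 6 libraries. They were ranked by log2 difference, with genes at 0 at their bound, by difference in CPM per kilobase, and by log2 difference within 4 classes of steps. The rule gave 4 IDs per direction for each of the first rankings and 2 per class, of which at most 2 per direction are printed because the table holds no gene names. The lists of genes by function and of cell type markers were not used for the same reason. The members, classes and rules were chosen with earlier results of these data known. Alternatives used DESeq2 1.42.0, limma 3.58.1 (voom), library totals, other filters, other sets of libraries and a replicate block.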

Additional observations from a re-analysis of the deposited data

How the results depend on the processing

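The alternatives were planned, except library totals for genes switched on or off. With every library kept, 102 of 123 summary values stayed within 1.5 times the reported count or 1 SD of the reported median share. The others were as follows. With library totals, 4138 genes rose and 14361 fell over the span, with median shares of 17.9% and 33.7%. Against a 2-fold change, 9957 genes passed over the span (4085 higher, 5872 lower), 1683 and 7508 in its first and second step and 2231 from DAP20 to DAP30, with 698 in the first step only, 462 in both, 5477 in the second only, 32 past and back and 88 against first. With FDR below 0.01 throughout, 983 were in the first step only, 754 in both, 50 past and back and 201 against first. With a mean of at least 5 CPM, 1488 were in neither step, and with only DAP20 and DAP30 in the fit, 5796 changed between them. The cause was not tested, beyond fewer genes or a stricter test.

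With 1 library left out, whose partner is assumed to vary like the other stages, counts ran from 14030 to 17306 for the span (6605 to 8160 higher, 7425 to 9221 lower), 1818 to 9204 and 10010 to 15100 for its steps, and 4660 to 9390 for DAP20 to DAP30. The classes ran from 739 to 2784 (first step only), 555 to 3063 (both), 7668 to 9520 (second only), 69 to 178 (past and back), 165 to 1131 (against first) and 2045 to 6469 (neither). Median shares ran from 23.2% to 29.1% for rises and 18.7% to 24.0% for falls. Of 983 values of named genes, none had another sign and 24 were no longer called. Stages share their replicate numbers, but replicate differences correlated by -0.027 to 0.147 between stages, so they were not taken as pairs. With a replicate block 17050 genes changed over the span, 6138 and 14779 in its steps and 8653 from DAP20 to DAP30. DAP10 had the least depth, and the part of depth in the low count of the first step was not tested.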

Other observations

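Gene models added by the authors, taken from the word newGene in the ID, changed less often than annotated IDs. Of 1295 such models tested, 284 rose from DAP5 to DAP20 (21.9%) and 184 fell (14.2%), against 29.3% and 32.5% of annotated IDs. The added models had lower levels, with a median of 1.28 CPM over the DAP5, DAP10 and DAP20 libraries against 11.6 for annotated IDs, and were shorter, with a median deposited length of 1502 bases against 2029.5. Of the 910 added models in the lowest of 4 groups by level 30.9% were called, against 51.6% of all genes in that group. In the middle groups 40.2% of 256 and 56.25% of 80 were called, against 61.0% and 63.2%. Of the 49 in the highest group 79.6% were called, against 66.7%. No test of these differences was made. Genes that rose over the span had a median deposited length of 2045 bases, those that fell 1924 and those not called 2064.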
